A study of Mus musculus with 44 samples.

Results

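The cochlear nucleus of mice operated on at postnatal day 21 (P21) was compared with the nucleus of the other side 12 h after 1 cochlea had been removed. The comparison holds 6 of the 44 arrays of the series, 3 of the deafferented nucleus on the side of surgery and 3 of the control nucleus opposite, chosen by age, time and side in the sample labels and matched by replicate number. The other arrays cover surgery at P7 or P21 and 6, 12, 24 or 48 h of survival, in 16 groups. Every animal lost 1 cochlea, so the control nucleus belongs to operated mice, no group came from unoperated animals, and a difference between sides may lie in either nucleus. The series design states that the RNA of each replicate came from a separate tissue pool. P-values and SEs measure the spread of the side differences between matched pairs of such pools, shared over all ages and times. An SE marked with 3 pairs is therefore not the spread of those pairs alone. Strain, sex and the number of animals in a pool are not given in the sources used here. Total RNA of freshly dissected, snap frozen nuclei was labelled with biotin and measured on Affymetrix arrays, which carry 22626 probe sets. Values are log2 levels, so a difference of 1 is a doubling.

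The cochlear nucleus is the brainstem station at which all fibres of the auditory nerve end. Its neurons receive fast glutamatergic input from the spiral ganglion cells of the cochlea, and removal of the cochlea silences that input at once and then leads the cut axons to degenerate. In the young brain many of the nucleus's neurons die after such a loss, while after hearing has matured most survive. Microglia, the resident macrophages, and astrocytes react to degenerating axons by changing their gene expression, and neurons that lose their input lower genes that depend on activity. The comparison addresses which of these responses can be seen early in the older nucleus.

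The medians of the 6 arrays run from 5.973 to 6.038. The share of probe sets above log2 5, taken here as the limit of background, runs from 59.48% to 61.79%. Arrays of replicates 1 and 2 correlated with each other at r between 0.985 and 0.993, whichever side they came from. The replicate 3 arrays of both sides correlated with those of replicates 1 and 2 only at r between 0.960 and 0.970, and with each other at 0.982. Replicate 3 therefore stands apart on both sides, and each deafferented array was set against the control array of the same number. The tissue held the transcripts of the vesicular glutamate transporter Slc17a6 (10.75 to 11.53), of the GABA-synthesising enzyme Gad1 (9.85 to 10.77), of the astrocyte channel Aqp4 (10.91 to 11.84) and of myelin Mbp (14.30 to 14.63) in every array. Of the defining hindbrain genes, Hoxa2, Hoxb2, Hoxa3 and Hoxb3 lay near background, between 4.56 and 5.81, and the glycine transporter Slc6a5 of the nucleus's inhibitory neurons lay below log2 5 in all 6 arrays. Slc17a7, the glutamate transporter of the auditory nerve endings, had no probe set with 1 gene symbol in the table used. Transcripts listed here as cerebellar were present, with Gabra6 of granule cells at 9.72 to 10.13, and so was Ttr of the choroid plexus at 13.65 to 14.87. Levels in tissue RNA do not show which cells made these transcripts.

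At 12 h few probe sets separated the 2 sides beyond the spread of the pairs. Of 15323 probe sets above background, 6 passed the test (0.0392%), 4 higher (0.0261%) and 2 lower (0.0131%) in the deafferented nucleus. They stand for the chemokine gene Ccl3, the growth arrest gene Gadd45a, the lipase gene Lpl and Pdrg1, which rose, and for Lima1 and Stk24, which fell. The test was limma's, fitted over all 44 arrays with the matched pair as a block, with p-values adjusted by the Benjamini-Hochberg method over the 15323 probe sets and a threshold of 0.05. Before adjustment 948 probe sets (6.19%) had a p under 0.05, and 431 (2.81%) did in the fit without the block. The values of the 2 sides did not overlap for 1085 probe sets (7.08%).

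**Figure D1:**
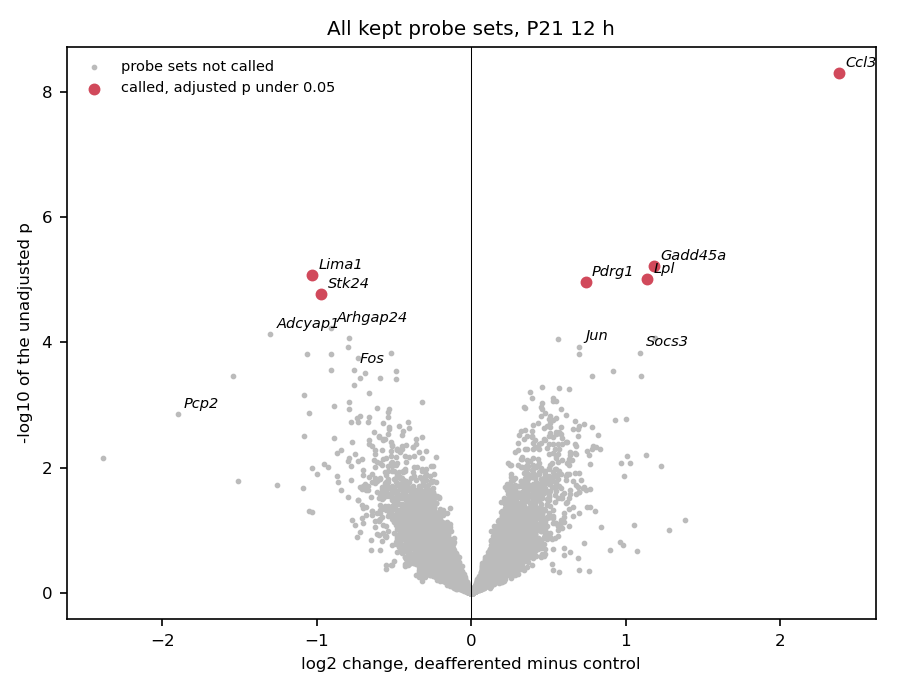
Each point is 1 of the 15323 probe sets kept, with the log2 change at P21 12 h (deafferented minus control) on the x axis and the −log10 of the unadjusted limma p on the y axis. The 6 called probe sets are red, with Ccl3 far to the upper right at a change of 2.38, and 6 further genes are labelled by their probe set of smallest p.

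Ccl3 encodes a chemokine that activated microglia and macrophages release to attract other immune cells. It was at 3.06, 3.00 and 3.09 in control replicates 1, 2 and 3, and at 5.34, 6.09 and 4.88 in the deafferented replicates. All control values lie in background, and 2 of the 3 deafferented values lie above log2 5. The rise was 2.38 ± 0.253 (SE, n = 3 pairs; limma adjusted p = 7.7e-05). Both the SE and the p are thus set against background values, and the probe set was kept for testing through its deafferented arrays. Counted from log2 5 instead of the control values, the deafferented mean was higher by only 0.44.

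Gadd45a, a gene induced by DNA damage, growth arrest signals and axon injury, was well above background on both sides. It measured 7.49, 7.62 and 7.09 in the controls and 8.67, 8.43 and 8.63 in the deafferented nuclei. Every deafferented value lay above every control value, and the pairs differed by 1.18, 0.81 and 1.54. The rise was 1.18 ± 0.197 (SE, n = 3 pairs; limma adjusted p = 0.0331). Lpl, the lipoprotein lipase that releases fatty acids from lipoproteins and is made by microglia that take up lipid debris, measured 6.98, 7.29 and 6.90 against 8.26, 8.23 and 8.11. The deafferented replicates lay within 0.15 of each other and above all controls, and the rise was 1.14 ± 0.198 (limma adjusted p = 0.0331). A second, dimmer probe set of Lpl missed the threshold (0.67 ± 0.218, adjusted p = 0.496).

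The 250 bases before the transcription start of Ccl3 and Gadd45a are shown because these were the 2 called genes of smallest p with a promoter in the table used, and the data bear on the output of these promoters. The RefSeq table (build GRCm38.p6) held a promoter for 4 of the 6 called genes, Ccl3, Gadd45a, Pdrg1 and Lima1. Both stretches lie on the minus strand, Ccl3 at chr11:83649379-83649628 and Gadd45a at chr6:67037408-67037657, and are written 5′ to 3′ toward the start with motif matches in capitals.
Ccl3: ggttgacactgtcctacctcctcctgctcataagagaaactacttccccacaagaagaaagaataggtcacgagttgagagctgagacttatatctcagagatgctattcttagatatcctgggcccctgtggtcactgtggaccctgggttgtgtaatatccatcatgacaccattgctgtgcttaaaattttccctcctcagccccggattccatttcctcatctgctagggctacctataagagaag
Gadd45a: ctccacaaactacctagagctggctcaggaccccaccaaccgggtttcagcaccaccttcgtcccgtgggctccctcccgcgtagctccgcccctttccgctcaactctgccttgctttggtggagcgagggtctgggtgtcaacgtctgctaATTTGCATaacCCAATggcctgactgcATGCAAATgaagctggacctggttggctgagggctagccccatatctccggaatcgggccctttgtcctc
In the 300 bases from 250 before to 50 after the start, 6 motifs were searched on both strands. They were the TATA box (TATAAA), the AP-1 site (TGANTCA), the cyclic AMP response element (TGACGTCA), the kappaB site, the octamer (ATTTGCAT) and the CCAAT box (CCAAT). The last 2 were added after the sequences had been seen. Gadd45a held 2 octamers, 1 in each orientation at -97 to -90 and -70 to -63, around a CCAAT box at -86 to -82. An octamer is found in 1.74% of 32851 promoters of this length, and a CCAAT box in 37.4%. Ccl3 held none of the 6 motifs. Pdrg1 held 2 CCAAT boxes and Lima1 held 1. The shares over all promoters were 13.6% for the TATA box, 7.81% for the AP-1 site, 1.79% for the cyclic AMP response element and 4.51% for the kappaB site. These matches describe letters in a window, and no binding was measured.

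Pdrg1, a small gene named for its regulation by p53 and DNA damage, rose by 0.74 ± 0.13 (SE, n = 3 pairs; limma adjusted p = 0.0331), from 7.79, 8.08 and 7.35 to 8.65, 8.50 and 8.30. Its brighter probe set had a smaller difference in the same direction (0.47 ± 0.144, adjusted p = 0.433). Lima1, which encodes a protein that binds and stabilises actin filaments, fell by 1.03 ± 0.178 (adjusted p = 0.0331). Its levels were 6.33, 5.57 and 6.30 in the controls and 4.95, 4.83 and 5.32 in the deafferented nuclei, so most of the lower values lie in background. Stk24, a kinase of the sterile 20 family, fell by 0.97 ± 0.176 (adjusted p = 0.0435), from 8.26, 8.13 and 8.04 to 7.46, 7.55 and 6.50. Here too the gene's brighter probe set differed less, by -0.37 ± 0.168 (adjusted p = 0.793). Pdrg1 and Stk24 fall outside the rule by which genes were named, which takes each gene's brightest probe set, and were named after their values were seen.

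**Figure D2:**
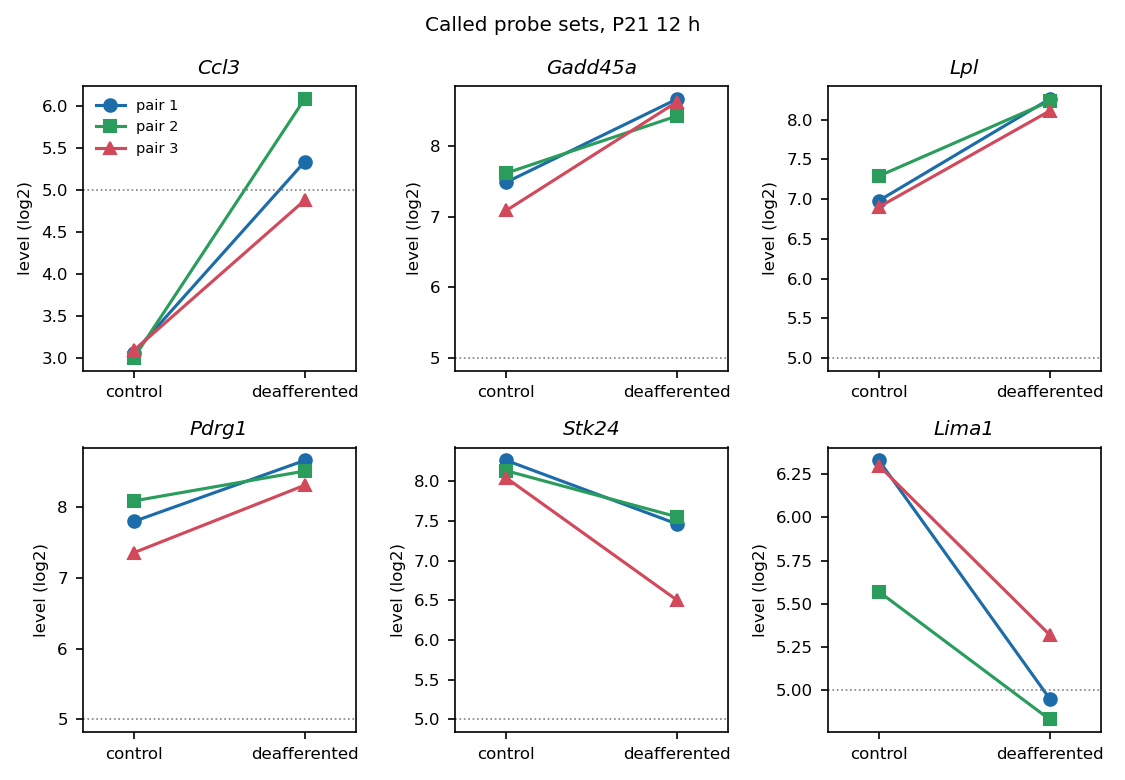
Log2 levels of the 6 called probe sets in control and deafferented nuclei at P21 12 h, with a line joining the 2 arrays of each matched pair and a dotted line at log2 5. All 3 lines rise for Ccl3, Gadd45a, Lpl and Pdrg1 and fall for Stk24 and Lima1, and no deafferented value overlaps the controls.

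Most of these calls rest on all 3 pairs and on the spread shared over the series. Without replicate 1, 2 or 3 the counts were 2, 1 and 2, and Ccl3 was the only one of the 6 called each time. Without replicate 3, Gadd45a (0.99, adjusted p = 0.728) and Lpl (1.11, adjusted p = 0.665) kept their direction and did not pass. Fitted on the 6 arrays alone, no probe set passed, with 942 at an unadjusted p under 0.05, and Ccl3 had an adjusted p of 0.117. Without the block, 4 probe sets passed. These were Ccl3, Gadd45a, Lpl and the neuropeptide gene Adcyap1 (adjusted p = 0.0443), while Lima1 did not (adjusted p = 0.074).

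A count by size alone gives a similar scale. In all 3 pairs 22 probe sets (0.144%) differed at least 1.5-fold in the same direction, 9 higher (0.0587%) and 13 lower (0.0848%). Single pairs differed far more widely. In pair 1, 636 probe sets (4.15%) were at least 1.5-fold higher and 753 (4.91%) lower. Pair 2 had 273 (1.78%) and 291 (1.9%), and pair 3 had 748 (4.88%) and 961 (6.27%). The SD of the log2 differences over all probe sets was 0.353, 0.27 and 0.381 in pairs 1, 2 and 3. After quantile normalisation the same rule gave 24 probe sets, 13 higher and 11 lower, so the split between directions depends on the scaling.

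Genes next in size on the higher side included several of microglia, astrocytes and cytokine signalling, none of which passed the adjusted test. Those named here had an unadjusted p under 0.01, the same direction in all 3 pairs and a mean above log2 5 in the higher group, and the 12 greatest differences of each sign among 145 such genes were taken. Socs3, the feedback inhibitor of cytokine receptors that signal through STAT3, was at 5.32, 5.53 and 5.46 in the controls and at 6.82, 6.36 and 6.39 in the deafferented nuclei. The sides did not overlap, and the difference was 1.09 ± 0.235 (SE, n = 3 pairs; adjusted p = 0.133). In a second, dimmer probe set of Socs3 the sides overlapped (0.70 ± 0.253, adjusted p = 0.633). Osmr, the receptor for oncostatin M, acts upstream of the same pathway and differed by 0.83 ± 0.265 (adjusted p = 0.464). Its pairs differed by 1.56, 0.54 and 0.39, and without replicate 1 the difference was 0.46. Cd68, found in the lysosomes of microglia and macrophages, was at 4.19, 4.99 and 4.48 against 5.97, 5.38 and 5.71, a difference of 1.13 ± 0.375 that starts from background (adjusted p = 0.509). Clec7a, a pattern receptor of activated microglia, measured 4.14, 4.33 and 4.59 against 5.42, 5.39 and 5.05 (0.93 ± 0.261, adjusted p = 0.389).

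The other higher genes of this group were Dnajc28 (1.10), Csrp2 (1.00), Zfand1 (0.92), Sap30 (0.78) and Naaa (0.76), the last a lysosomal amidase that breaks down fatty acid ethanolamides. In Dnajc28, Csrp2 and Zfand1 the third pair differed most, by 2.10, 1.76 and 1.62, against 0.49 to 0.68 in the first and second pairs. Without replicate 3 their differences were 0.60, 0.62 and 0.57. Sap30 rested on the first pair, with 1.85 against 0.05 and 0.44, and was 0.24 without replicate 1. A second, dimmer probe set of Naaa, in background except in control replicate 3 (5.13), differed by -0.11.

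Among these genes the difference of greatest size on the lower side was that of Pcp2, a marker of cerebellar Purkinje cells, at 8.96, 7.30 and 10.13 in the controls and 6.32, 6.96 and 7.43 in the deafferented nuclei. The control arrays alone span nearly 3 log2 units and the sides overlap. The matched pairs differed by -2.65, -0.34 and -2.70, and the fitted difference of -1.90 ± 0.515 did not pass (adjusted p = 0.37). A probe set without a single gene symbol, which the rule leaves unnamed, differed more, at 8.55, 9.85 and 6.35 against 6.62, 5.61 and 5.37 (-2.38 ± 0.799, adjusted p = 0.531). Calb1 (-0.93) and Slc1a6 (-0.89), also strong in Purkinje cells, were among the 12 greatest lower differences too. Calb1, a calcium buffer, was at 10.33, 10.10 and 10.56 against 9.56, 9.24 and 9.39, without overlap (adjusted p = 0.578). All 14 measured genes of the cerebellar list lay below 0, while 49.2% of all 8886 genes lay above it. The list median was -0.15 against 0.00 over all genes. The summed level of Gabra6, Pcp2, Cbln3 and En2 was 10.46 to 11.26 in the controls and 10.27 to 10.39 in the deafferented nuclei. Whether the share of adjoining cerebellum in the dissections accounts for these differences was not tested.

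Adcyap1, which encodes the neuropeptide PACAP, measured 6.12, 6.59 and 6.72 in the controls and 5.41, 5.13 and 4.99 in the deafferented nuclei. The sides did not overlap, and the difference was -1.30 ± 0.265 (SE, n = 3 pairs; adjusted p = 0.122). Arhgap24, an inhibitor of the small GTPase Rac, was at 6.68, 7.17 and 7.36 against 6.43, 5.94 and 6.12 (-0.91 ± 0.181, adjusted p = 0.122). Of 11 alternatives, it passed only in the fit without replicate 1, whose pair differed by only -0.26 (-1.23, limma adjusted p = 0.0191). Nr4a1, an orphan nuclear receptor induced by activity, was lower by 0.79 in the mean and is described with the immediate early genes. The remaining genes were Lypd1, which binds nicotinic acetylcholine receptors (-1.08), the adhesion molecule Nectin3 (-1.08), the Na,K-ATPase regulator Fxyd6 (-1.05), the transcription factor Bach2 (-0.89) and the carbonic anhydrase Car7 (-0.87). Their adjusted p lay between 0.289 and 0.496. Fxyd6 and Bach2 rested on the third pair more than on the others, with pairs of -0.22, -1.03 and -1.90 for Fxyd6 and of -0.13, -0.68 and -1.85 for Bach2. Without replicate 3 the differences were -0.63 and -0.40.

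**Figure D3:**
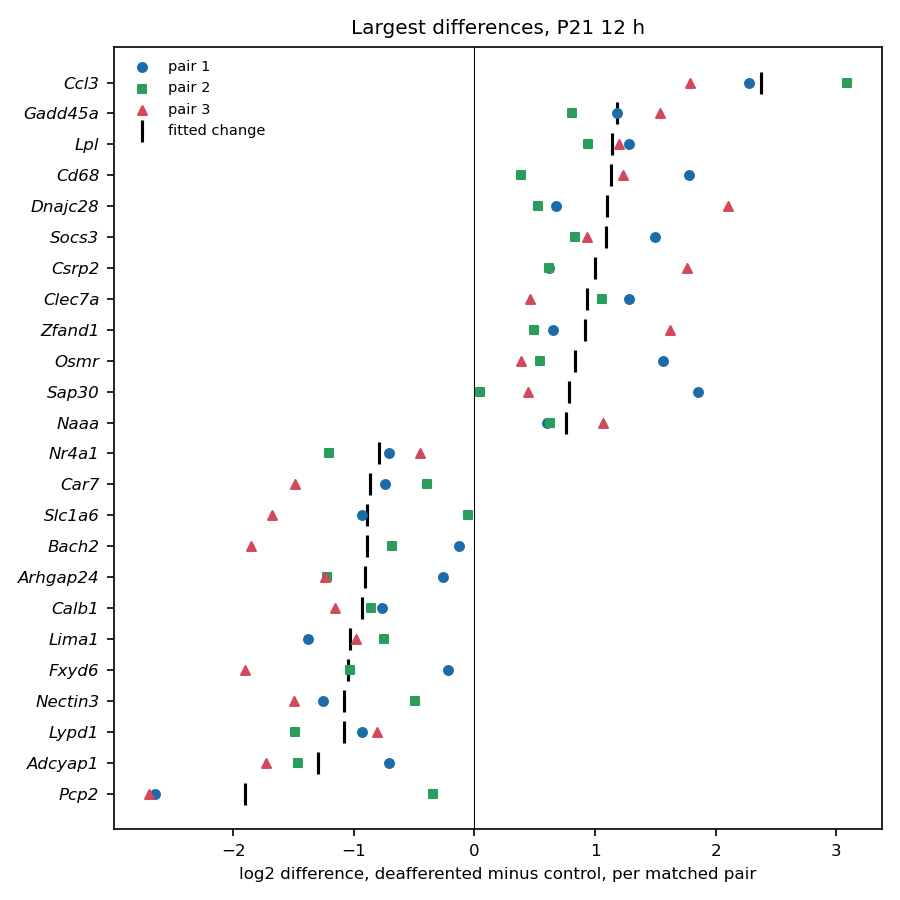
Log2 differences, deafferented minus control, in each of the 3 matched pairs at P21 12 h for the 12 greatest higher and 12 greatest lower differences, with a black tick at the fitted change. All 3 symbols of a gene lie on the same side of 0 by the choice of genes, and the spread of the pairs is widest for Pcp2, at -2.65, -0.34 and -2.70.

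More than the background share of genes lay above 0 in the lists of microglia, chemokines, complement and reactive astrocytes, which held no calls beyond Ccl3 and Lpl. All gene lists used here were written with earlier results of these data known. Their shares beside those of all genes are therefore descriptive and test nothing. Over all genes 49.2% lay above 0, which is the share to set beside the count of each list. Of 13 interferon response genes 6 lay above 0 (median -0.01), and so did 6 of 11 NF-kappaB targets and regulators (median 0.05). Of 25 measured genes of microglia and macrophages, 20 lay above 0, against 49.2% of all genes, and 7 (28%) were higher at an unadjusted p under 0.05, against 3.38% of all genes. Lpl was the only call, and the median was 0.15. Besides Lpl and Cd68 these were led by Cd83, a surface molecule of activated immune cells (0.61 ± 0.225), and Ly86, a partner of a Toll-like receptor homologue (0.51 ± 0.199). Of the 5 defining markers of microglia, C1qa differed by 0.57 and the other 4 by less. Csf1r differed by -0.01, P2ry12 by -0.03, Aif1 by -0.08 and Cx3cr1 by 0.24, and the summed level of the 5 was 10.40 to 10.60 in the controls and 10.56 to 10.86 in the deafferented nuclei. In tissue RNA, more cells of a type and more RNA per cell cannot be told apart.

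Among chemokines and cytokines, 10 of 14 lay above 0, with a median of 0.17 and Ccl3 as the only call. Ccl12, a chemokine that attracts monocytes, was at 2.46, 2.72 and 3.19 against 4.38, 4.49 and 3.20. All 6 values lie in background, and the third pair showed almost no difference (1.23 ± 0.43, adjusted p = 0.572). Cxcl12, which guides cells that carry its receptor, differed by 0.37 and the microglial growth factor Csf1 by 0.23. The cytokine Il1b, in background on all 6 arrays, differed by 0.05 ± 0.209. Ccl2 and Ccl4, close relatives of the chemokines named, had no kept probe set with 1 symbol.

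All 5 measured complement genes lay above 0, with a median of 0.24. C1qa, a chain of the recognition molecule that starts the classical pathway, was at 8.47, 8.88 and 8.37 against 9.21, 9.07 and 9.15. Its sides did not overlap (0.57 ± 0.169, adjusted p = 0.424). The other C1q chains differed less, C1qc by 0.24 and C1qb by 0.14. The receptor C3ar1 (0.37, with all 6 values in background) and the inhibitor Serping1 (0.16) completed the group.

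The lipid list was the one with the greatest share of small p-values. Of 21 genes of lipid and cholesterol handling, 16 (76.2%) lay above 0, against 49.2% of all genes. At an unadjusted p under 0.05, 7 (33.3%) were higher, against 3.38% of all genes. The median was 0.09, and 0.23 without replicate 3. Fabp5, a fatty acid carrier, differed by 0.39 ± 0.1, Fdps of cholesterol synthesis by 0.40 ± 0.128 and the fatty acid synthase Fasn by 0.32 ± 0.122. Their adjusted p were 0.304, 0.464 and 0.674. The Fdps values of 9.86, 9.92 and 10.00 in the controls and 10.40, 10.31 and 10.27 in the deafferented nuclei did not overlap.

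Astrocytes showed a partial picture. Of 24 genes of reactive astrocytes, 17 (70.8%) lay above 0, against 49.2% of all genes. At an unadjusted p under 0.05, 5 (20.8%) were higher, against 3.38% of all genes. The median was 0.10, and 0.24 without replicate 3. Socs3 and Osmr led the list, followed by the copper protein gene Cp on the lower side (-0.34) and Emp1 (0.74), which lay in background on all 6 arrays. Gfap, the intermediate filament that marks reactive astrocytes, did not separate the sides, at 10.43, 10.50 and 9.03 in the controls and 10.63, 10.85 and 8.82 in the deafferented nuclei (0.11 ± 0.172). It was lower in replicate 3 on both sides. Of 15 genes of resting astrocytes 6 lay above 0, with a median of -0.02.

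Activity-dependent genes differed in both directions at 12 h, and none passed at this time. Fos, the immediate early transcription factor, was at 9.50, 9.36 and 8.81 in the controls and at 8.59, 8.48 and 8.30 in the deafferented nuclei. The sides did not overlap, and the difference was -0.76 ± 0.175 (SE, n = 3 pairs; adjusted p = 0.189). Of 11 alternatives, Fos passed only in the fit on the P21 arrays alone (limma adjusted p = 0.0386). Jun, its partner in the AP-1 complex and a gene of axon injury, differed in the opposite direction, from 8.45, 8.36 and 8.25 to 9.25, 9.24 and 8.68 (0.70 ± 0.149, adjusted p = 0.133). Nr4a1 was at 6.69, 7.14 and 6.77 against 5.98, 5.93 and 6.32 (-0.79 ± 0.21, adjusted p = 0.339), and Klf4 differed by -0.38.

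Other genes of the same class hardly differed. Egr1 differed by 0.18 ± 0.253, Junb, in background on all 6 arrays, by 0.27 ± 0.219, and Atf3, a stress gene of injured neurons and likewise in background, by 0.08 ± 0.292. Over the 15 measured immediate early transcription factors the median was 0.00, with 7 above 0. Bdnf had no kept probe set with 1 symbol.

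Among 25 effectors of neuronal activity, 15 lay below 0 and 7 (28%) were lower at an unadjusted p under 0.05, against 2.91% of all genes. The median was -0.03. Rgs2, which shortens signalling by G proteins, was at 8.86, 9.16 and 8.98 against 8.51, 8.05 and 8.08 (-0.79 ± 0.163, adjusted p = 0.122). Dusp1, the phosphatase that switches off MAP kinases, was at 8.47, 9.01 and 8.55 against 8.02, 7.78 and 8.03 (-0.73 ± 0.161, adjusted p = 0.145). Rgs4 (-0.49 ± 0.117) and the granin Scg2 (-0.40 ± 0.115) were lower as well, and none of these sides overlapped. Arc, which acts at synapses, differed by -0.44 ± 0.159 with overlap.

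Of 18 neuropeptide and granin genes, 13 lay below 0, with a median of -0.07, and 27.8% lay above, against 49.2% of all genes. Lower at an unadjusted p under 0.05 were 4 (22.2%), against 2.91% of all genes. Besides Adcyap1 these included Cck (-0.48 ± 0.153) and Tac1, the precursor of substance P (-0.78 ± 0.295). Sst, the somatostatin gene, went the other way, at 7.32, 7.63 and 7.87 against 8.05, 7.91 and 8.38 (0.51 ± 0.145, adjusted p = 0.402).

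Most genes of glutamate receptors and of synaptic vesicles lay slightly below 0, and those of inhibitory transmission did not. The 13 measured genes of inhibitory transmission had 8 members above 0 and a median of 0.05. Of 12 measured glutamate receptor genes and their partners, 11 lay below 0, with a median of -0.12, a range of -0.33 to 0.27 and none at an unadjusted p under 0.05. The postsynaptic scaffold Dlg4 (-0.33 ± 0.169) and the receptor subunits Grik1 (-0.28) and Grik5 (0.27) had the greatest differences. Gria4, a fast receptor subunit of auditory neurons, had no kept probe set with 1 symbol. Of 20 genes of synaptic vesicles and release, 16 lay below 0, with a median of -0.10, and again none had an unadjusted p under 0.05. Bsn of the active zone differed by -0.47, Snap25 by -0.15 and Syp by -0.22.

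No channel or calcium buffer gene passed the test. Of 18 voltage-gated channels 13 lay below 0, with a median of -0.09. The calcium channel gene Cacna1g had the greatest difference (-0.73 ± 0.321), which rested on the third pair, with -2.30 against -0.28 and 0.37. The potassium channel genes Kcna1, at 10.74 to 11.16 in the controls and 11.11 to 11.23 in the deafferented nuclei (0.27 ± 0.212), and Kcnc1 (-0.10 ± 0.21) overlapped between sides. Of 14 calcium-binding and buffering proteins 9 lay below 0, with a median of -0.11, led by Calb1 (-0.93). Calb2, the calretinin gene, was at 10.65, 10.81 and 10.21 against 10.45, 10.46 and 10.04 (-0.24 ± 0.125).

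Lists of cell stress and death had medians between -0.09 and 0.01. Of 20 genes of apoptosis and survival, none had an unadjusted p under 0.05, and the median was -0.05. Of 17 growth arrest and p53 targets, Gadd45a was the only one higher at that level, while Cdkn1a, the cell cycle inhibitor induced by p53, differed by -0.12, Mdm2 by -0.34 and Fas by -0.32. Medians were 0.01 over 21 genes of the unfolded protein and integrated stress responses, -0.04 over 17 heat shock genes, -0.02 over 19 oxidative stress genes and 0.01 over 16 glucocorticoid targets. Of 24 genes of axon injury and growth, Gadd45a again was the only call, and 9 lay above 0.

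Transcripts of neighbouring tissue also differed in level between the sides, and none of those listed passed the test. The list of meninges and choroid plexus had a median of -0.19 over 21 genes, with collagens lower and choroid plexus markers higher in the fitted change. Col1a1 was at 7.51, 8.37 and 8.71 against 7.18, 7.36 and 7.90 (-0.72 ± 0.197), and Col1a2 (-0.57) and Col3a1 (-0.48) differed likewise. The summed level of the 4 meningeal markers was 10.34 to 11.00 in the controls and 10.03 to 10.44 in the deafferented nuclei, and that of the 4 choroid plexus markers 13.66 to 14.48 against 14.40 to 14.90. Among the choroid plexus markers, Kl was lower in the third pair (6.44 against 6.79 in the control) and Folr1 in the first (6.22 against 6.72). The part of these tissues in the other differences was not tested.

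**Figure D4:**
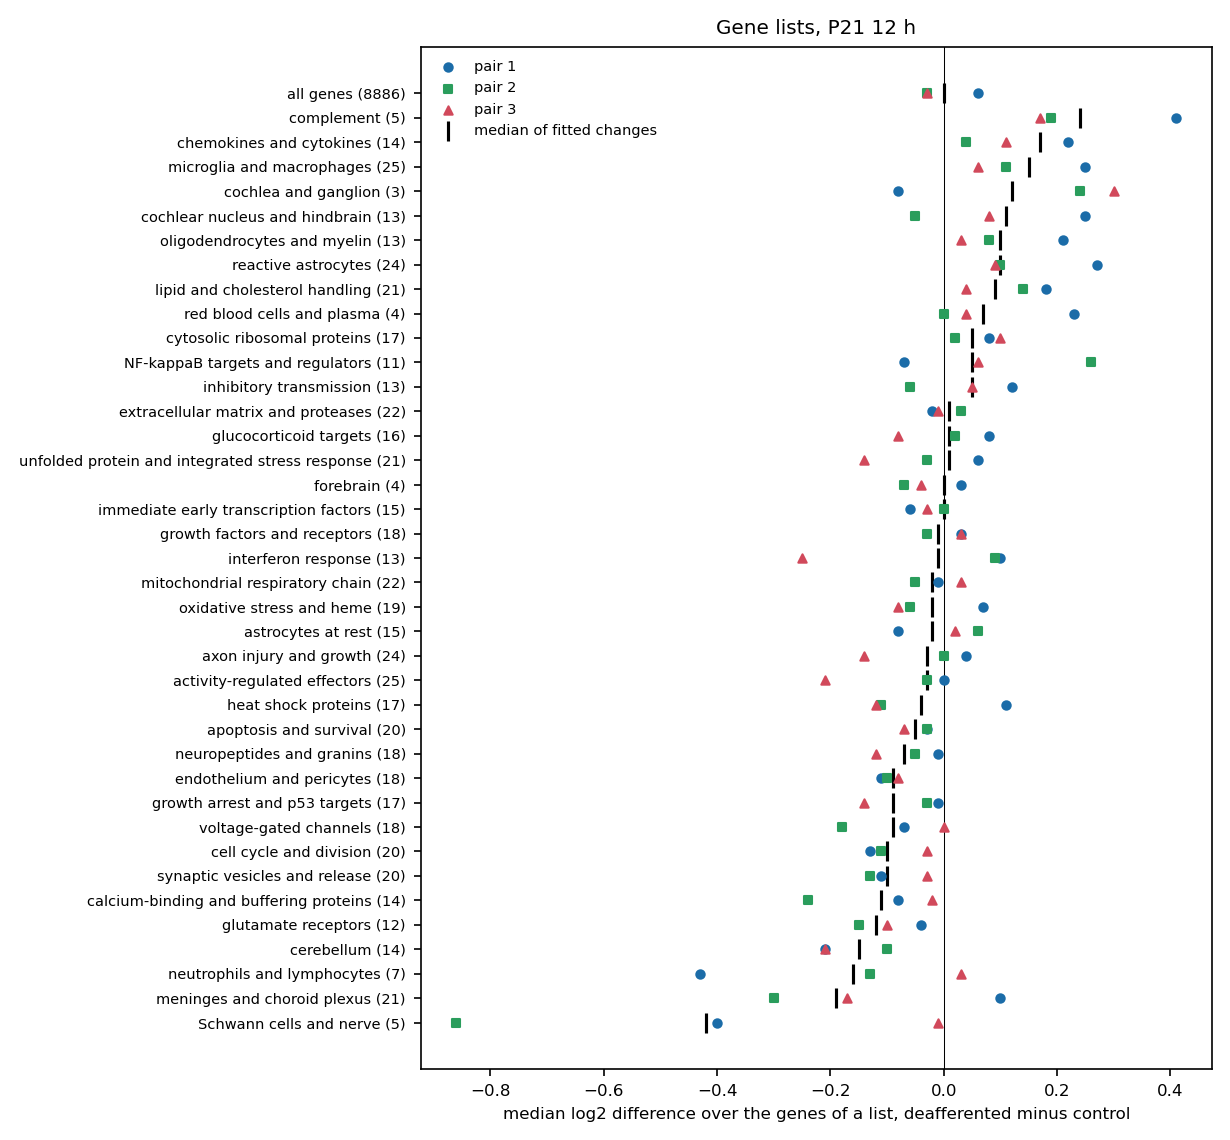
Median log2 difference, deafferented minus control, over the measured genes of each of the 38 lists in each matched pair at P21 12 h, with the number of genes in brackets and a black tick at the median of the fitted changes. Complement, chemokine and microglial genes lie to the right of 0 in all 3 pairs, and cerebellar and glutamate receptor genes to the left, against medians of 0.06, -0.03 and -0.03 over all genes.

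The next question was how the state at 12 h relates to the other times at P21, each measured on other arrays. Gadd45a differed by 1.48 at 6 h, rose by 1.59 at 24 h and by 1.38 at 48 h, and passed at each time. Lpl differed by 0.25 at 6 h, rose by 2.18 at 24 h (adjusted p = 5.7e-07) and differed by 0.66 at 48 h (adjusted p = 0.222). Ccl3 differed by 0.05 at 6 h, rose by 1.54 at 24 h (adjusted p = 0.0011) and differed by -0.04 at 48 h. Its control means stayed between 3.04 and 3.07, and the deafferented mean was 3.12 at 6 h and 4.58 ± 0.93 (SD, n = 3) at 24 h. All of these means lie in background, so the rise at 24 h is a difference between means below log2 5.

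Stk24 fell at 24 h (-0.92, adjusted p = 0.00486) and at 48 h (-0.80, adjusted p = 0.0303). Lima1 differed by -0.19, -0.18 and -0.17 at 6, 24 and 48 h. All 6 called probe sets had the same direction at 6 h and at 24 h, and 5 had it at 48 h. Of the 6, 1 was called at 6 h (0.0196% of all probe sets), 4 at 24 h (1.63%) and 2 at 48 h (0.679%). Of the 9 probe sets at least 1.5-fold higher in all pairs, 6 were also higher at 24 h, where 44.2% of all probe sets lay above 0, and of the 13 lower, all 13 were also lower. Fos, not called at 12 h, fell at 6 h (-1.62, limma adjusted p = 0.00302), 24 h (-1.67, adjusted p = 3.78e-06) and 48 h (-0.85, adjusted p = 0.0177). At 24 h Nr4a1 (-1.49) and Dusp1 (-1.01) fell and Jun rose (1.16), while Egr1 (0.20), Junb (-0.25) and Arc (-0.25) did not pass.

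**Figure D5:**
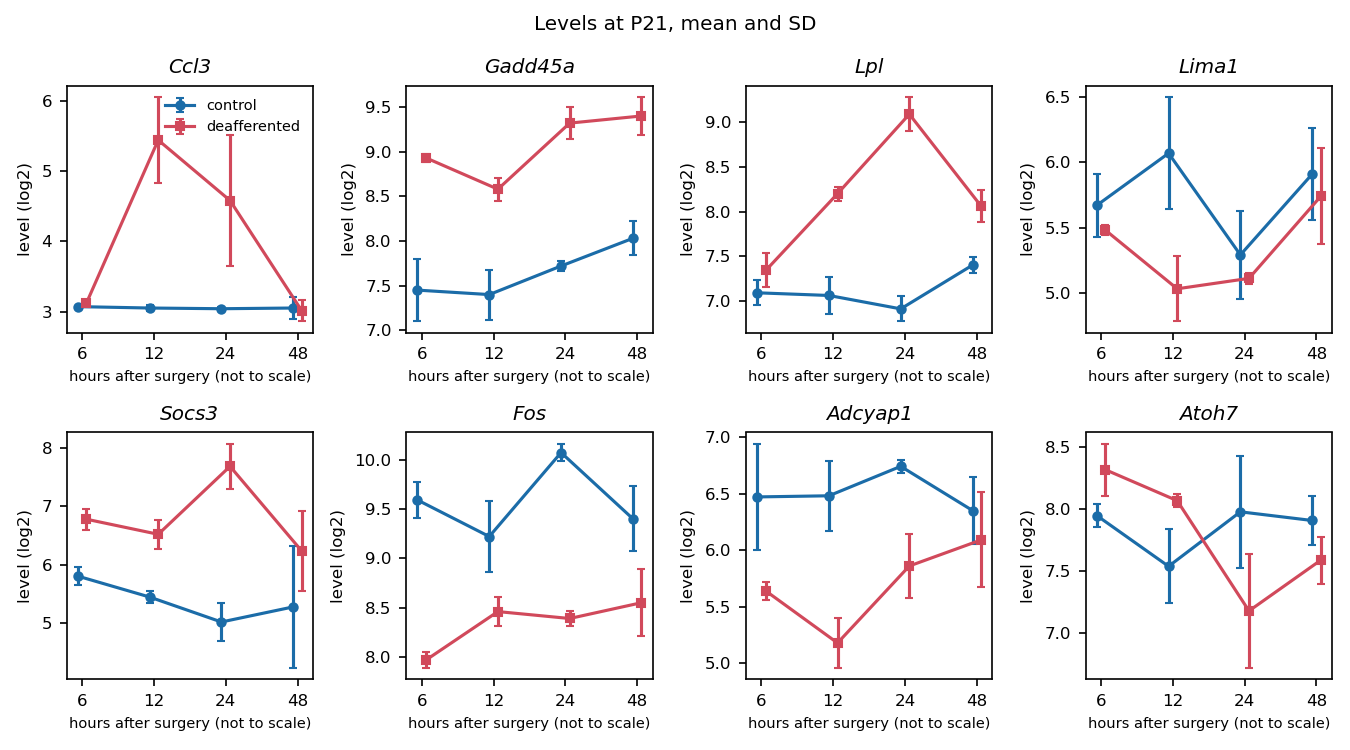
Log2 levels in control and deafferented nuclei of P21 mice at 6, 12, 24 and 48 h as mean and SD (n = 2 arrays per side at 6 h and 3 otherwise). At 12 h Ccl3 has its highest deafferented mean (5.44) and Lpl lies between its levels at 6 and 24 h, while Atoh7 is higher than the control at 12 h and lower at 24 h.

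The effect at 24 h differed from that at 12 h for 39 probe sets (0.255%), 35 with a greater (0.228%) and 4 with a smaller value (0.0261%) at 24 h. Among them, the protease inhibitor gene Timp1 differed by 0.30 at 12 h, from 4.41 ± 0.05 to 4.71 ± 0.12 (SD, n = 3), and by 4.12 at 24 h. The change between the times was 3.82 ± 0.621 (SE; limma adjusted p = 0.0031). Tgm1, a transglutaminase, differed by 0.03 at 12 h and 3.26 at 24 h, and Ptx3, a soluble pattern recognition protein, by -0.01 and 2.71. Serpina3n, an acute-phase protease inhibitor of reactive astrocytes, differed by 0.36 and 3.19. Lalba, the milk protein gene, was uneven at 12 h, at 3.92, 4.54 and 2.45 against 2.43, 2.47 and 2.43, all in background. Timp1, Tgm1 and Ptx3 also lay in background in all 6 arrays of P21 12 h. At 24 h the control means of Timp1, Tgm1, Ptx3 and Lalba did too, against deafferented means of 8.57, 6.30, 6.88 and 6.48. The changes of these genes between the times are thus set against background values. Among the P21 groups, Tgm1, Ptx3 and Lalba had a mean above log2 5 only in the deafferented nuclei at 24 h. The filter could thus keep them through the arrays in which they were high.

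Gpr146, Atoh7 and Dbp had the opposite order, each with a positive difference at 12 h that did not pass and a negative one at 24 h. The orphan receptor gene Gpr146 differed by 0.51 at 12 h and fell by 1.00 at 24 h (change -1.50 ± 0.196, adjusted p = 0.000301). Atoh7, a transcription factor of bushy cells in the cochlear nucleus, was at 7.19, 7.70 and 7.73 against 8.02, 8.11 and 8.08 at 12 h (0.53 ± 0.148, adjusted p = 0.389) and fell by 0.80 at 24 h (change -1.33 ± 0.209, adjusted p = 0.00238). Dbp, a clock-controlled transcription factor, differed by 0.55 and -0.40 (change -0.94 ± 0.199, adjusted p = 0.0443). A second probe set of Dbp differed by 0.03 and -0.24, and its change of -0.27 did not pass (adjusted p = 0.967). That of Atoh7 differed by 0.33 and -1.14, and its change of -1.47 did not pass either (adjusted p = 0.0801).

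Probe sets called at 24 h were mostly shifted the same way at 12 h, though few passed. Of 249 called at 24 h, 196 had the same direction at 12 h, and 4 were called there. Of the 176 higher at 24 h (1.15%), 137 lay above 0 at 12 h, against 46.1% of all probe sets. They had medians of 0.93 at 24 h and 0.15 at 12 h, and the 73 lower (0.476%) had medians of -0.77 and -0.19. For reactive astrocytes, the list median was 0.08 at 6 h, 0.10 at 12 h and 1.53 at 24 h, with 17 of 24 genes called at 24 h. For microglia it was 0.08, 0.15, 0.43 and, at 48 h, 0.89.

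At P7 the same 12 h of survival gave another picture for 1 gene. The fitted effect at P21 differed from that at P7 for 1 probe set (0.00653%), that of Ccl3, which lay in background in 3 of the 4 groups compared. At P7 its level was 2.98 ± 0.14 (SD, n = 3) in the controls and 2.97 ± 0.19 in the deafferented nuclei, and the effect differed between the ages by 2.39 ± 0.358 (SE; limma adjusted p = 0.0188). Counted from log2 5, only the 0.44 of the P21 deafferented mean remains of this difference. That call was lost in fits without replicate 1 or 2 of P21 12 h or replicate 1 of P7 12 h, where no probe set passed. Gadd45a differed by 0.36 at P7, Lpl by 0.24, Socs3 by 0.07 and Fos by -0.29, and none of these passed there. Calb1 differed by -0.89 at P7, close to its difference at P21. Of the 6 probe sets called at P21 12 h, 3 had the same direction at P7, where 53.2% of all probe sets lay above 0, and none was called, against 0.0522% of all probe sets called at P7.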

How the data were processed

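The deposited values are log2 levels, for which the authors used GCRMA according to the submitters' processing notes. Its version, and whether all arrays were normalised together, are not given in the sources used here. These values were used unchanged. Of 22626 probe sets, 20380 had 1 gene symbol in the platform annotation, and 20351 of these were matched by gene identifier to the RefSeq table of GRCm38.p6. A probe set had to exceed log2 5 in 2 or more arrays, which 15323 did. For each of 8886 genes the one with the highest mean over all arrays stood for the gene. limma 3.58.1 in R 4.3.3 was fitted to all 44 arrays, with 22 matched pairs as a block, 1 side effect per age and time, and a variance trend (14 residual and 7.15 prior degrees of freedom). P-values are two-sided and Benjamini-Hochberg adjusted over all kept probe sets within a contrast. The script was tested on simulated data.

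Groups and replicate numbers came from the labels. Deviations from group means at P21 12 h correlated at 0.312, 0.324 and 0.687 within replicates 1, 2 and 3. Control 1 with deafferented 2 (0.493) and control 2 with deafferented 1 (0.506) correlated more, so the numbers set only replicate 3 apart clearly, and the labels name no shared animals. Genes were named when called, when among the 12 greatest differences of a sign as described, when among the 4 members of a described list with the smallest p, when among the 5 greatest of a sign called in a contrast with 24 h or P7, or when among 24 genes followed whatever their values. The members, the 38 gene lists and the naming rule were chosen with earlier results of these data known. No set test was run. The number of arrays limits the precision, and the values carry no read depth. Alternatives were the fit without the block, other sets of arrays, other filters, quantile normalisation, no variance trend, and leaving out pairs. Leaving out single pairs of P21 24 h and P7 12 h was added after the data were seen.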

Additional observations from a re-analysis of the deposited data

Results flagged for a closer look

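The effect of deafferentation at P21 differed between 24 h and 12 h for 39 probe sets by limma's test of the difference. Among named genes the change from 12 h to 24 h was 3.82 for Timp1, 3.23 for Tgm1, 2.88 for Lalba, 2.83 for Serpina3n, 2.73 for Ptx3, 2.28 for the stress transcription factor Atf3, 1.59 for Socs3 and 1.22 for Gfap. It was -1.50 for Gpr146, -1.33 for Atoh7 and -0.94 for Dbp, whose second probe set gave -0.27 (adjusted p = 0.967). Gpr146 lay near or in background at both times. Timp1, Tgm1, Lalba, Ptx3 and Atf3 lay in background in all 6 arrays of P21 12 h, as did their control means at 24 h. The changes of these genes are thus set against background values. The filter could keep Tgm1, Lalba and Ptx3 through the deafferented arrays at 24 h, in which they were high. The adjusted p was 0.0112 for Atf3, 0.0405 for Socs3 and 0.0259 for Gfap. Second probe sets did not pass, with changes of 0.70 for Socs3 (adjusted p = 0.785), 1.12 for Gfap (0.193) and -1.47 for Atoh7 (0.0801).

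The effect at 12 h differed between P21 and P7 for 1 probe set by the same test, that of Ccl3, by 2.39. Its values lay in background in 3 of the 4 groups, and counted from log2 5 the P21 difference is 0.44. For 4 further named genes all 3 pairs at P21 lay on 1 side of 0 and all 3 pairs at P7 on the other, and limma's test of the difference did not pass. P21 minus P7 was 1.73 for Csrp2 (adjusted p = 0.253), 1.19 for Zfand1 (0.314), -2.15 for Pcp2 (0.475) and -0.55 for Arc (0.554). No outlying sample could be sought in groups of 3.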

How the results depend on the processing

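With 6 probe sets called at P21 12 h, the alternatives gave 4 without the replicate block (3 of them among the 6), 7 on the P21 arrays alone, 5 with either other filter, 4 after quantile normalisation and 6 without the variance trend. The 6 arrays alone gave 0 (942 at an unadjusted p under 0.05). Leaving out 1 matched pair gave 1 to 2, and leaving out the third pairs of all 12 and 48 h groups gave 2. Ccl3 passed in 9 of 10 alternatives, Gadd45a in 6 of 11, and Lpl and Lima1 in 4 of 11 each. Without the replicate block 431 probe sets had an unadjusted p under 0.05, against 948 with it. The 39 probe sets that differed between 24 h and 12 h became 23 without the replicate block and 24 without the third pairs of 12 and 48 h. They became 24 to 31 when 1 pair of 12 h was left out and 22 to 48 for 1 pair of 24 h. The 1 probe set that differed between P21 and P7 remained 1 without the replicate block. The count became 7 without a filter and 0 with a filter at log2 6, which removes Ccl3. It was 2 without the third pairs, 0 to 2 without 1 pair of P21 12 h and 0 to 7 without 1 pair of P7 12 h. The 22 probe sets past 1.5-fold in all pairs became 24, 19 and 24 with no filter, the stricter filter and quantile normalisation. Causes of these differences were not tested. No direction of a named gene that was called turned under any alternative. Levels near log2 5, as for Ccl3, Cd68, Clec7a and Gpr146, limit what their differences show.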

Other observations

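Several genes outside the naming rule were picked after their values were seen. Tnfrsf12a, the receptor for the cytokine TWEAK and a gene of injury responses, was at 7.40, 7.36 and 7.10 in the controls and 6.79, 6.14 and 6.55 in the deafferented nuclei at 12 h (-0.79 ± 0.205, limma adjusted p = 0.322). It differed by -1.08 at 6 h and by 0.66 at 24 h, and the effect at 24 h exceeded that at 12 h (adjusted p = 0.0259). Its second, brighter probe set differed by -0.55 at 12 h and 0.71 at 24 h, and the change between the times did not pass there. Sncg, a synuclein abundant in sensory neurons, was at 6.99, 7.44 and 6.81 against 6.40, 5.60 and 6.16 (-1.03 ± 0.363, adjusted p = 0.594). The immune checkpoint gene Cd276 was at 4.47, 4.03 and 4.72 against 3.42, 3.03 and 3.60, all in background (-1.06 ± 0.23, adjusted p = 0.133).

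Of 13 oligodendrocyte and myelin genes 12 lay above 0, with a median of 0.10, and Aspa, an enzyme of myelin lipid synthesis, differed by 0.36 ± 0.158. Of 17 cytosolic ribosomal protein genes 11 lay above 0, with a median of 0.05. Of the 5 Schwann cell and nerve genes measured, Ncmap of peripheral myelin was at 4.98, 6.79 and 4.56 in the controls and 4.48, 4.21 and 4.55 in the deafferented nuclei, so that its difference of -1.03 rests on control replicate 2. Pmp22 differed by -0.57 ± 0.34, with its highest value, 11.21, in the same control array. The platelet-derived growth factor gene Pdgfb differed by -0.76 ± 0.183, and the arrays of pair 3 stood at 5.87 and 4.42.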
